A study of Mus musculus with 6 samples.

Results

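The 9 genes described here make up the core of glycogen metabolism in liver, led by the liver glycogen synthase gene Gys2, and were taken from the 53715 genes of the count table by gene symbol. They fall into 3 roles, with Gys2, Ugp2 and Gbe1 in synthesis, Ppp1r3b, Ppp1r3c and Ppp1r3g as targeting subunits of a phosphatase, and Pygl, Phka2 and Phkg2 in breakdown. The genes were chosen by function with the fold changes and calls of FR F1 against control F1 in these same counts known, Gys2 foremost. Their values are therefore a description and lend no support to a difference between the groups. Liver RNA came from F1 males at 8 weeks of age of ICR mice, which are outbred, and 3 control F1 libraries were set against 3 FR F1 libraries. What FR stands for is not spelled out in the labels; they call the exposure of the FR F1 group paternal famine and that of the other group control, while the series title speaks of a paternal overdiet. No genotype, transgene or direct treatment of the F1 animals is given, both groups share strain, sex, age and tissue, and the labels do not say whether each library is a separate animal or whether animals share a father. P-values therefore measure the spread between these libraries, which may be technical.

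Glycogen is the branched glucose polymer in which hepatocytes store sugar after a meal and from which they release it between meals. UDP-glucose, made by the enzyme that Ugp2 encodes, is added to growing chains by glycogen synthase, and the product of Gbe1 introduces the branches. Glycogen phosphorylase, the product of Pygl, removes glucose units once phosphorylase kinase has switched it on, and protein phosphatase 1 reverses that switch and activates the synthase when a targeting subunit holds it on the glycogen particle. In liver, glycogen content and several of these transcripts are known to follow feeding and the daily clock.

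Library totals were 2279755 to 2730160 counts, and levels are given as CPM, each gene's share of its library's counts scaled with trimmed-mean (TMM) factors. Of all genes, 13022 had enough counts to be tested, and 8 of the 9 glycogen genes were among them, all except Ppp1r3g. Control replicate 1 correlated with the FR F1 libraries (mean r across genes 0.942) more closely than with the other control libraries (0.923). Control replicate 3 had the lowest mean correlation with its own group (0.917), and its mitochondrial genes held 0.101% of counts against 0.282% to 0.352% in the other libraries. Marker genes of hepatocytes, the cells that hold most of the liver's glycogen, summed to 4600 to 5422 CPM in control F1 and 4118 to 4778 CPM in FR F1, led by Cps1 and Alb, and 6 of 9 had a negative log2 fold change. Those of stellate cells and fibroblasts summed to 283 to 468 CPM and 649 to 723 CPM. Those of sinusoidal endothelium summed to 402 to 593 CPM and 663 to 796 CPM. Log2 fold changes were positive in 8 of 8 genes of each list. They were also positive in 6 of 6 Kupffer cell and macrophage markers and in 4 of 4 tested B and plasma cell markers. Of all 13022 tested genes, 6517 had a positive one. Skeletal muscle markers summed to 0.434 to 3.07 CPM and 0.410 to 1.11 CPM, with Mb at 0 counts in every library. In bulk tissue, fewer cells of a type and less RNA per cell cannot be told apart. The hepatocyte markers Alb, Apoa2 and Apoa1 reached 1.14, 0.905 and 0.887 counts per base pair of transcript in their densest library. Whether such dense counts understate their levels was not tested.

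Of the 8 glycogen genes tested, Gys2 was lower in FR F1 livers and no member was higher at an edgeR adjusted p under 0.05. Among all tested genes 0.445% were called lower and 0.392% higher, 0.837% in all. Gys2 and Ppp1r3c were the members whose groups did not overlap, Gys2 with the FR F1 libraries below and Ppp1r3c with them above. Groups did not overlap in 25.7% of all tested genes, 12.5% with FR F1 above and 13.2% with it below. The median log2 fold change of the 8 members was 0.07, beside 0.0004 over all tested genes. Nothing about the set is read from these shares, since the comparison took part in choosing it.

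**Figure D1:**
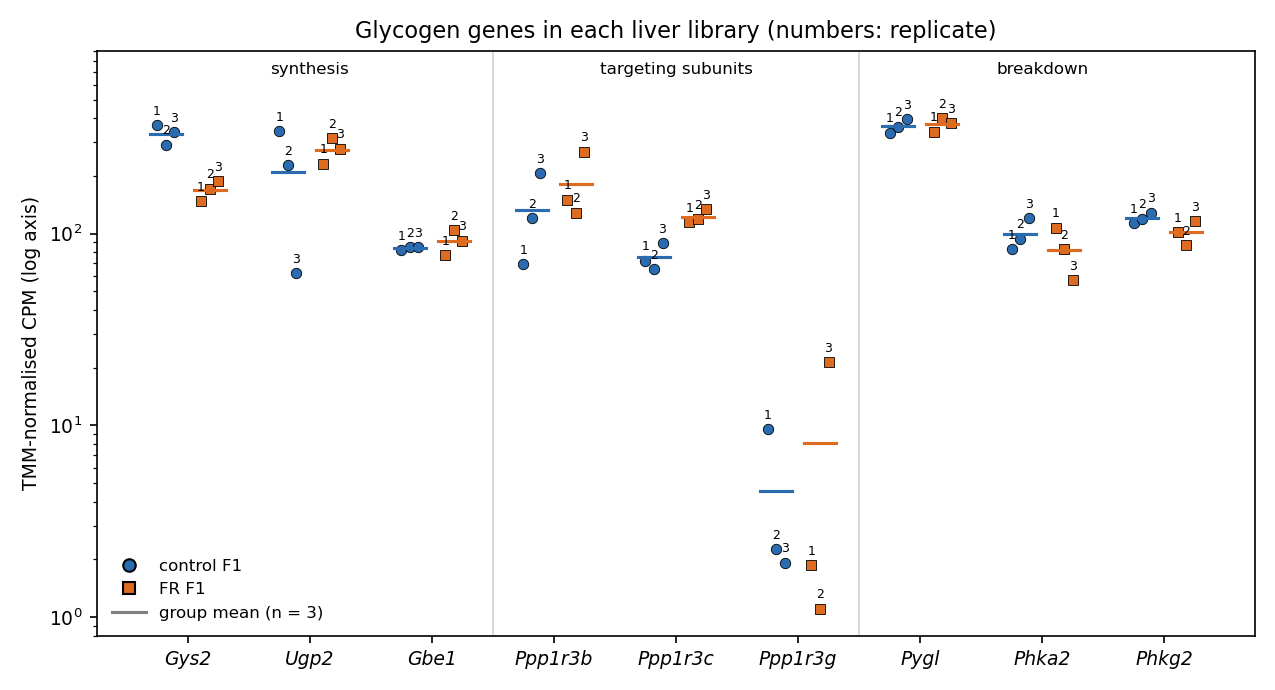
TMM-normalised CPM of the 9 glycogen genes in each liver library, on a log axis, with circles for control F1, squares for FR F1, the replicate number above each point and a line at each group mean (n = 3). Gys2 lies at 291 to 367 CPM in control F1 and 148 to 188 CPM in FR F1, while the groups overlap in every other gene except Ppp1r3c.

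Gys2 (ENSMUSG00000030244) encodes the liver form of glycogen synthase, the enzyme that lengthens glycogen chains, and lies on the minus strand of chromosome 6, from 142422613 to 142473109 in mm10. Control F1 replicates 1 to 3 had 367, 291 and 338 CPM, from 846, 646 and 880 counts, and FR F1 replicates 1 to 3 had 148, 171 and 188 CPM, from 395, 465 and 458 counts. The lowest control library was above the highest FR F1 library. The group means were 332 ± 38.2 and 169 ± 20.2 CPM (SD, n = 3), so that the FR F1 level was 0.509 of the control level. The log2 fold change was -0.97 ± 0.14 (SE), with a 95% interval of -1.29 to -0.66 and an edgeR quasi-likelihood adjusted p of 0.0319 over all tested genes, the 40th smallest p among them. Within each group the coefficient of variation of Gys2 was 11.5% in control F1 and 12.0% in FR F1, beside medians of 19.9% and 14.1% over all tested genes.

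The direction of Gys2 was the same under all 17 other settings tried, with log2 fold changes from -1.06 to -0.87, but its call was not. It passed the threshold in 12 of them, with a DESeq2 adjusted p of 4.6e-05 and a limma-voom adjusted p of 0.0353. It did not pass without control replicate 2 (edgeR adjusted p 0.0899), without FR replicate 1 (0.168), without FR replicate 2 (0.149) or without FR replicate 3 (0.0743). Without control replicate 1 the log2 fold change was -0.90 (edgeR adjusted p 0.0220), and without control replicate 3 it was -0.97 (0.0299).

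**Figure D2:**
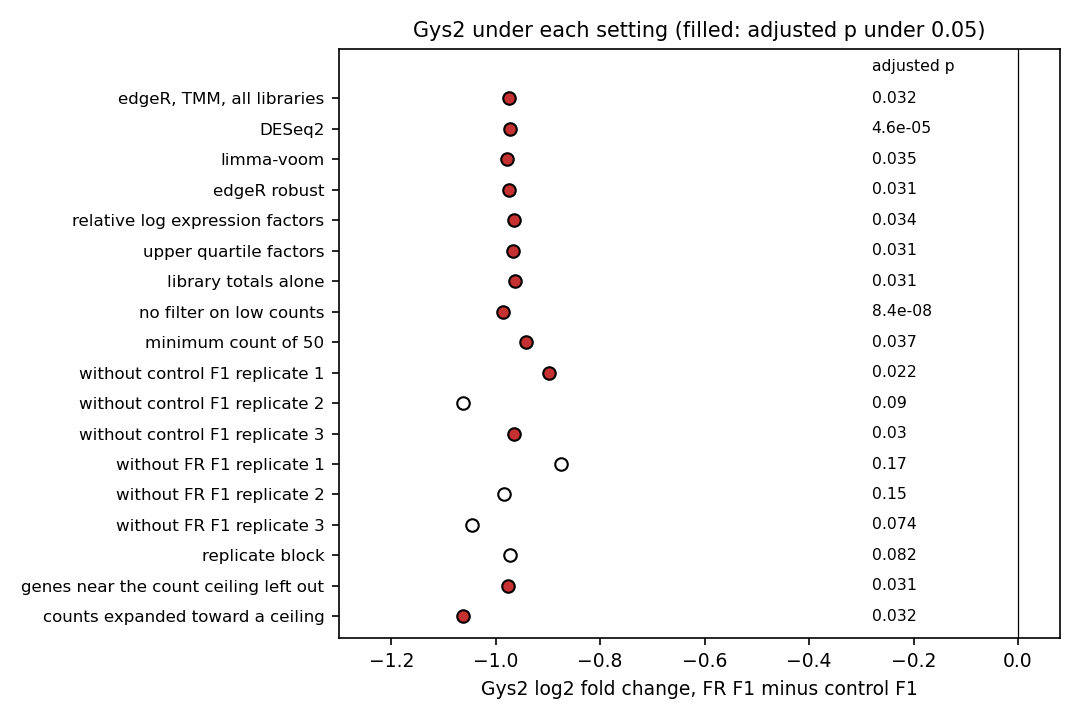
Log2 fold change of Gys2, FR F1 minus control F1, under the edgeR fit with all libraries and 17 other settings, with the adjusted p of each at the right and filled points where it was under 0.05. All points lie between -1.06 and -0.87, and the open points are the replicate block and 4 of the 6 settings that leave out a library.

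Gys1, the muscle form of glycogen synthase, was also counted in these livers. The longest identical run between annotated transcripts of Gys2 and Gys1, shown here because a longer read from Gys2 could not match Gys1 without a mismatch, was 29 bases, and the longest between Pygl and the brain phosphorylase gene Pygb was also 29 bases. Both are given 5′ to 3′ in the sense strand of the GENCODE M21 transcripts.
Gys2 and Gys1: aatttcaacgtggaaaccctgaagggcca
Pygl and Pygb: caggagtactttgtggtggctgccaccct
The read length is not stated in the labels. None of the 2657 windows of 50 bases in Gys2 transcripts occurred in a transcript of another gene, and the same held for Gbe1, Ppp1r3c and Ppp1r3g. For Ugp2, Pygl, Phka2 and Ppp1r3b the shared windows made up 0.948%, 0.526%, 0.398% and 0.192%.

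Gys1 was at 2.004 to 3.44 CPM per kilobase of transcript in control F1 and 2.30 to 4.57 CPM per kilobase in FR F1. Per kilobase, Gys2 exceeded Gys1 in every library, 36.9-fold to 68.9-fold in control F1 and 15.5-fold to 27.99-fold in FR F1. The log2 fold change of Gys1 itself was 0.28 ± 0.36 (edgeR adjusted p 0.694), with overlapping groups. Gys1 shares 310 exonic base pairs with Ruvbl2 on the other strand; whether counting used the strand is not stated.

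**Figure D3:**
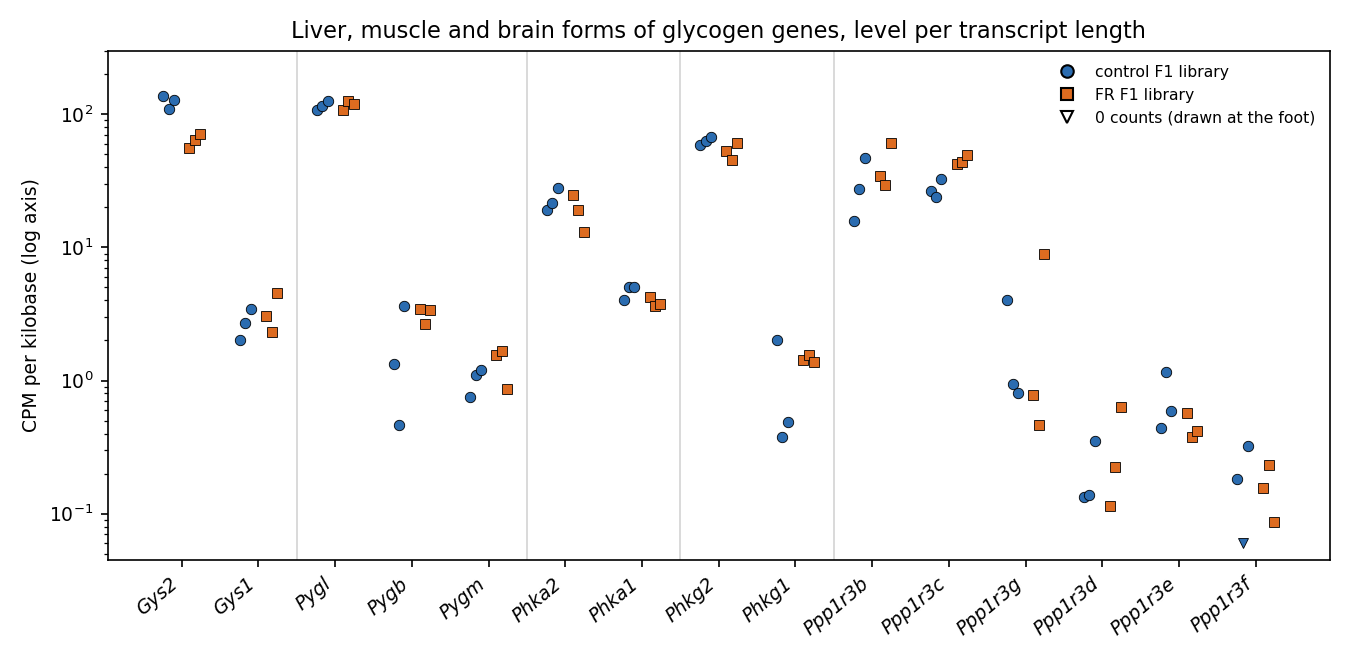
CPM per kilobase of the longest annotated transcript, on a log axis, for the liver forms of glycogen genes and their muscle, brain or minor forms in each library (circles control F1, squares FR F1, triangles at the foot 0 counts). Gys2, Pygl, Phka2 and Phkg2 lie above their related forms in all 6 libraries.

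Ugp2, the gene of UDP-glucose pyrophosphorylase (minus strand of chromosome 11, 21321138 to 21371201), had 343, 227 and 62.1 CPM in control F1 replicates 1 to 3 and 231, 314 and 278 CPM in FR F1 replicates 1 to 3. Control replicate 3 was the lowest of all libraries and the groups overlapped. The means were 211 ± 141 and 274 ± 41.4 CPM (SD, n = 3). Ugp2 had a log2 fold change of 0.38 ± 0.49 (edgeR adjusted p 0.689), which became -0.06 without control replicate 3 (adjusted p 0.921) and 0.93 without control replicate 1 (adjusted p 0.227). The spread of Ugp2 among control libraries, a coefficient of variation of 66.9%, was wider than that of 94.6% of tested genes, and among FR F1 libraries it was 15.1%.

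Gbe1, the branching enzyme gene (plus strand of chromosome 16, 70313949 to 70569716), had 82.0, 85.2 and 85.1 CPM in control F1 and 77.4, 104 and 91.9 CPM in FR F1. The control libraries lay inside the range of the FR F1 libraries. Its means were 84.1 ± 1.86 and 91.1 ± 13.3 CPM (SD, n = 3), a log2 fold change of 0.11 ± 0.15 with a 95% interval of -0.24 to 0.47 (edgeR adjusted p 0.705). Among control libraries the coefficient of variation of Gbe1 was 2.21%, and 1.51% of tested genes had a lower one.

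Of the targeting subunits, which bring protein phosphatase 1 to glycogen, Ppp1r3c was the one whose groups did not overlap. Ppp1r3c (minus strand of chromosome 19, 36731731 to 36736653) encodes the subunit also called protein targeting to glycogen. It had 72.4, 65.4 and 89.0 CPM in control F1 replicates 1 to 3 and 114, 119 and 134 CPM in FR F1 replicates 1 to 3. Every FR F1 library was above every control library. The means of 75.6 ± 12.1 and 122 ± 10.1 CPM (SD, n = 3) differed 1.62-fold, a log2 fold change of 0.69 ± 0.16 with a 95% interval of 0.32 to 1.07. In the edgeR fit Ppp1r3c did not pass the threshold (adjusted p 0.103). Without control replicate 1 its log2 fold change was 0.66 (edgeR adjusted p 0.0796), and without control replicate 3 it was 0.82 (0.0522). Without control replicate 2 it was 0.60 (edgeR adjusted p 0.301). Without FR replicates 1, 2 and 3 in turn the edgeR adjusted p was 0.273, 0.265 and 0.235. Ppp1r3c passed in 2 of 17 other settings, DESeq2 (adjusted p 0.0310) and edgeR without a filter on low counts (0.0161).

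Ppp1r3b (plus strand of chromosome 8, 35375739 to 35388139), the gene of the subunit long known as the liver one, varied widely within each group. It had 69.4, 121 and 207 CPM in control F1 replicates 1 to 3 and 150.3, 129 and 268 CPM in FR F1 replicates 1 to 3. Replicate 3 was the highest of each group, and the groups overlapped. The means were 132 ± 69.6 and 182 ± 75.0 CPM (SD, n = 3), and the log2 fold change was 0.46 ± 0.40 (edgeR adjusted p 0.563), ranging from 0.09 without FR replicate 3 to 0.94 without control replicate 3.

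Ppp1r3g (plus strand of chromosome 13, 35958839 to 35970388), whose product is known in mouse liver as a subunit that follows feeding, had too few counts to be tested. It had 22, 5 and 5 counts in control F1 replicates 1 to 3, or 9.54, 2.25 and 1.92 CPM. In FR F1 replicates 1 to 3 it had 5, 3 and 52 counts, or 1.87, 1.11 and 21.3 CPM. FR replicate 3 held the highest value and FR replicate 2 the lowest, so the FR F1 libraries enclosed all control libraries. Of the related subunit genes, Ppp1r3a, the muscle one, had 1 count in a single FR F1 library, and Ppp1r3d, Ppp1r3e and Ppp1r3f were at 0 to 1.15 CPM per kilobase.

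The promoter windows of Ppp1r3c and Pygl, 250 bases before to 50 bases after the annotated start, are shown because their genes had non-overlapping and nearly equal groups, and because the former holds the canonical E-box CACGTG, the hexamer that the clock factors CLOCK and BMAL1 are known to bind. Both are on the minus strand of GRCm38.p6, from RefSeq, with any searched motif in capitals; Ppp1r3c is at chr19:36736555-36736854 and Pygl at chr12:70227634-70227933.
Ppp1r3c: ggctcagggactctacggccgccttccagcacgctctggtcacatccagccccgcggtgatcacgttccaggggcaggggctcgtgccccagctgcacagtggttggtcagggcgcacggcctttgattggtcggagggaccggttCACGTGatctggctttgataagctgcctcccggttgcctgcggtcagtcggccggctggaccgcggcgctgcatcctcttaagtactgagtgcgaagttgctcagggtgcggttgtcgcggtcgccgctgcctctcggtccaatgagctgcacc
Pygl: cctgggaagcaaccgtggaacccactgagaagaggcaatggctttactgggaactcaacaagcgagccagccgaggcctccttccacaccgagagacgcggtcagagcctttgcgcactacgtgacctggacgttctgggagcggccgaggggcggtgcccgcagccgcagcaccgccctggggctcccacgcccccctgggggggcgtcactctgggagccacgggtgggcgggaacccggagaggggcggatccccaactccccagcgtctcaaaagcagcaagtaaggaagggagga
Gys2 and Ppp1r3b had no window, so neither was searched. The window table held the other 7 of the 9 genes, in 8 windows since Ugp2 has 2 starts. Each was searched on both strands for the E-box CACGTG, the cAMP response element TGACGTCA, the D-box core TTATGTAA and the TATA box TATAAA, none of which contains another. The E-box of Ppp1r3c, whose first base lies 104 bases before the start, was the only match in the 8 windows. Of 32851 mouse promoter windows of that length, 7.15% hold the E-box, 1.79% the cAMP response element, 0.938% the D-box core and 13.616% the TATA box. A match describes letters in the window and is not a measured binding site.

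The groups overlapped in all 3 breakdown genes. Pygl, the liver glycogen phosphorylase gene (minus strand of chromosome 12, 70190811 to 70231488), had 336, 362 and 396 CPM in control F1 and 341, 399 and 376 CPM in FR F1. The libraries of the groups interleave. The means were 365 ± 29.8 and 372 ± 29.4 CPM (SD, n = 3), and the log2 fold change was 0.03 ± 0.11 (edgeR adjusted p 0.905). Its 95% interval was -0.22 to 0.28.

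Phosphorylase kinase, which activates the phosphorylase, takes its liver alpha subunit from Phka2 and its liver catalytic gamma subunit from Phkg2. Phka2 (plus strand of chromosome X, 160502166 to 160598878) had 83.3, 94.2 and 120.4 CPM in control F1 and 107, 82.9 and 57.0 CPM in FR F1. FR replicate 3 was the lowest library and control replicate 3 the highest, with the others mixed. The log2 fold change of Phka2 was -0.27 ± 0.25 (edgeR adjusted p 0.577), and -0.05 without FR replicate 3. Phkg2 (plus strand of chromosome 7, 127573340 to 127583307) had 114, 119.9 and 129 CPM in control F1 and 102, 87.0 and 116 CPM in FR F1. The highest FR F1 library exceeded the lowest control library. Its log2 fold change was -0.25 ± 0.15 with a 95% interval of -0.60 to 0.10 (edgeR adjusted p 0.408).

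Phkg2 had the largest share of windows in common with other genes among the 9, 19.2%, so its counts are uncertain. The gene shares 876 of its 4000 exonic base pairs with Ccdc189 on the opposite strand, and 779 of its 4277 transcript windows of 50 bases lie in Ccdc189. The log2 fold change of Ccdc189 was -0.12 ± 0.19 (edgeR adjusted p 0.765).

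Within a library, the balance between synthase and phosphorylase transcripts was compared as a ratio of levels per kilobase, which needs no scaling between libraries. Gys2 stood at 1.29, 0.954 and 1.01 times Pygl in control F1 replicates 1 to 3 and at 0.513, 0.509 and 0.593 times Pygl in FR F1 replicates 1 to 3. The mean ratios were 1.09 ± 0.181 and 0.538 ± 0.0473 (SD, n = 3), with every FR F1 library below every control library. Against Ppp1r3c, Gys2 stood at 5.20, 4.57 and 3.89 in control F1 and at 1.32, 1.48 and 1.44 in FR F1. Both ratios hold Gys2, and the second also holds the higher Ppp1r3c values of FR F1. They restate differences given above and are not separate evidence of them.

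Over the 6 libraries the order of mean levels per kilobase was Pygl (117), Gys2 (94.2), Ugp2 (90.4), Phkg2 (58.0), Ppp1r3c (36.3), Ppp1r3b (35.9), Gbe1 (23.5), Phka2 (20.9) and Ppp1r3g (2.65). Phka2 and Ppp1r3g were the only neighbours in that order whose ranges over the libraries did not overlap. The first 3 stood in another order of means in each group, although the control ranges of Gys2 and Pygl overlapped. In control F1 the levels per kilobase were 125 ± 14.4 for Gys2, 116 ± 9.45 for Pygl and 78.5 ± 52.5 for Ugp2 (SD, n = 3). In FR F1 they were 118 ± 9.33 for Pygl, 102 ± 15.4 for Ugp2 and 63.6 ± 7.61 for Gys2. Over all libraries, with the mean length of coding transcripts in place of the longest transcript, Gys2 came 1st with 169 CPM per kilobase and Pygl followed with 127. Pygl exceeded Pygb 31.4-fold to 249-fold per kilobase, with the highest ratio in control replicate 2, where Pygb had only 4 counts. Phka2 exceeded Phka1, the muscle alpha subunit gene, 3.50-fold to 5.86-fold.

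Another 39 genes of the pathway were listed by role, and 33 of them had enough counts to be tested. None was called by edgeR, DESeq2 or limma-voom, and 6 had an unadjusted edgeR p under 0.05, beside 17.9% of all tested genes. Positive log2 fold changes were found in 17 and negative in 16, with a median of 0.01 beside 0.0004 over all tested genes. Groups did not overlap in 10 of the 33, and, as above, 25.7% of all tested genes were of that kind.

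**Figure D4:**
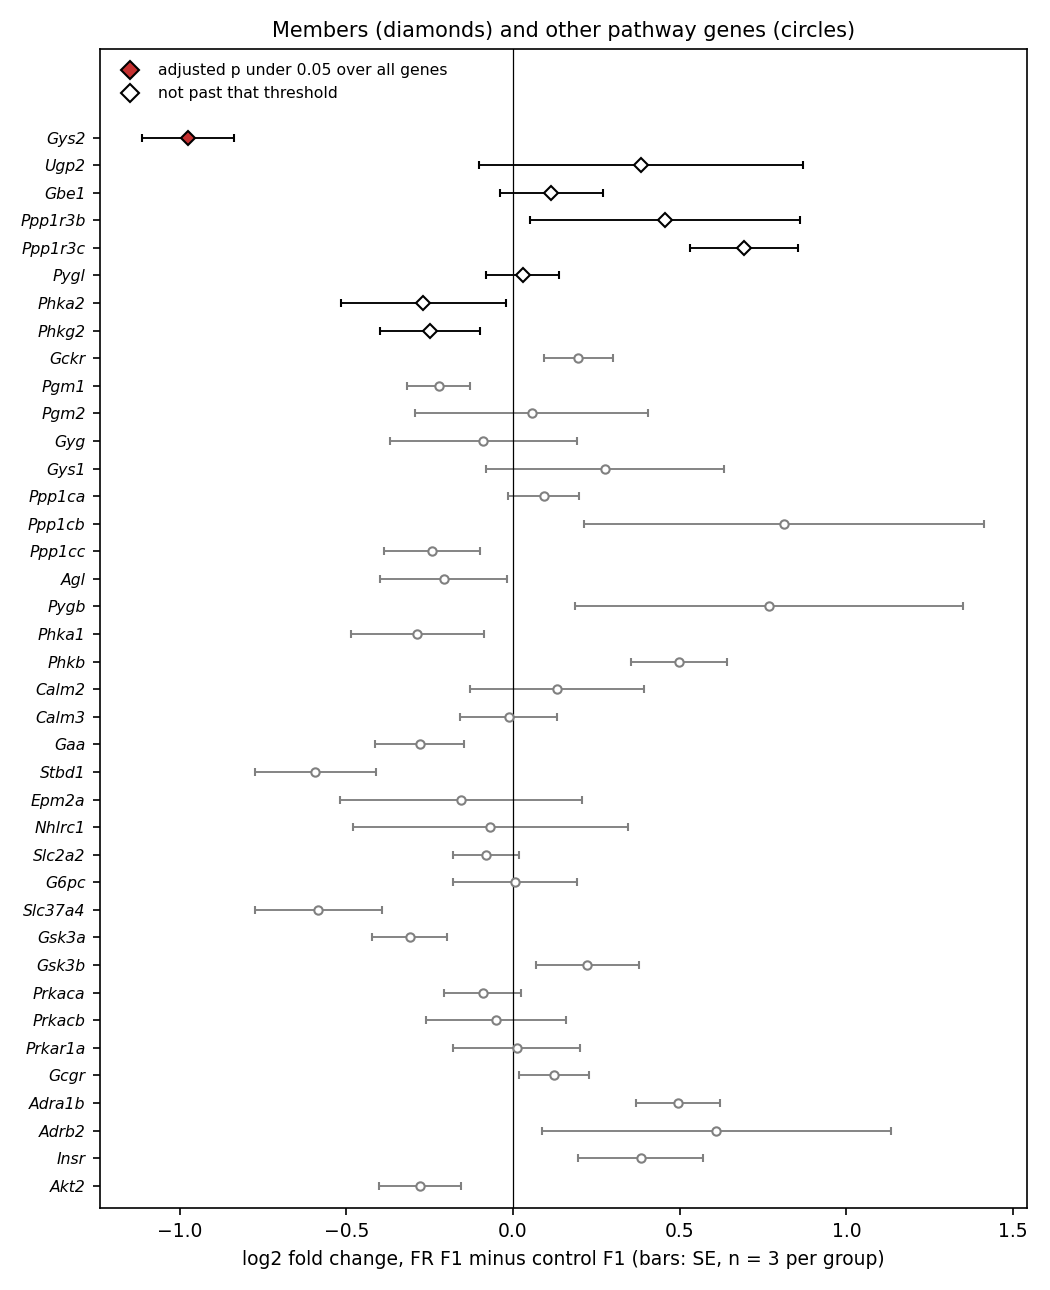
Log2 fold change, FR F1 minus control F1, with its standard error (n = 3 per group) for the 8 glycogen members tested (diamonds) and 31 of the 33 other pathway genes (circles), filled where the edgeR adjusted p over all genes was under 0.05. Gys2 at -0.97 is the only filled point and Ppp1r3c at 0.69 is the highest diamond.

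Around synthesis, Pgm1, a phosphoglucomutase gene that links glucose 6-phosphate to glucose 1-phosphate, had 288, 287 and 281 CPM in control F1 and 243, 249 and 241 CPM in FR F1. Its groups did not overlap, but its log2 fold change of -0.22 ± 0.09 did not pass (edgeR adjusted p 0.270), and it shares 398 exonic base pairs with Itgb3bp on the other strand. Gckr, a regulatory gene of hepatic glucose use, had a log2 fold change of 0.20 ± 0.10 (edgeR adjusted p 0.348), and every FR F1 library of Gckr was above every control library.

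Of the catalytic subunits of protein phosphatase 1, Ppp1cb was lowest in control replicate 3, as Ugp2 was. It had 178, 68.1 and 20.3 CPM in control F1 replicates 1 to 3 and 138, 185 and 145 CPM in FR F1 replicates 1 to 3. Ppp1cb had a log2 fold change of 0.81 ± 0.60 (edgeR adjusted p 0.491), from 0.33 without control replicate 3 to 1.83 without control replicate 1. Ppp1cc and Ppp1ca had log2 fold changes of -0.24 ± 0.14 and 0.09 ± 0.11 (edgeR adjusted p 0.400 and 0.661). Ppp1cb shares 1908 of its 10913 exonic base pairs with Gm43312 on the same strand. Ppp1ca shares 225 exonic base pairs with Rad9a on the other strand.

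In breakdown, Phkb, the gene of the beta subunit of phosphorylase kinase, had 62.0, 61.7 and 54.1 CPM in control F1 and 89.0, 83.6 and 78.4 CPM in FR F1. Every FR F1 library of Phkb was above every control library, whereas the alpha and gamma subunit genes Phka2 and Phkg2 had negative log2 fold changes. That of Phkb was 0.50 ± 0.14 (edgeR adjusted p 0.153). Phka1 had a log2 fold change of -0.29 ± 0.20 (edgeR adjusted p 0.465).

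All 4 genes of lysosomal glycogen breakdown and glycogen quality had log2 fold changes under 0, and their median was -0.22. Of all 13022 tested genes, 6505 had log2 fold changes under 0. Stbd1, which encodes a starch-binding protein that anchors glycogen to membranes, had 143, 141 and 175 CPM in control F1 and 80.8, 101.3 and 122 CPM in FR F1. Its groups did not overlap, and its log2 fold change was -0.59 ± 0.18 (edgeR adjusted p 0.170). Gaa, the acid alpha-glucosidase gene, had -0.28 ± 0.13 and Epm2a, the laforin gene, -0.16 ± 0.36 on the log2 scale (edgeR adjusted p 0.310 and 0.837). Without control replicate 1 the log2 fold change of Epm2a was 0.22. Nhlrc1 had 7 to 14 counts and a log2 fold change of -0.07 ± 0.41 (edgeR adjusted p 0.942).

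Glucose release from the endoplasmic reticulum needs the glucose 6-phosphate transporter gene Slc37a4 and the catalytic subunit gene G6pc. Slc37a4 had 337, 282 and 363 CPM in control F1 and 168, 210 and 278 CPM in FR F1. The highest FR F1 library was just under the lowest control library. Slc37a4 had a log2 fold change of -0.58 ± 0.19 (edgeR adjusted p 0.186). G6pc had 283, 284 and 258 CPM in control F1 and 365, 226 and 238 CPM in FR F1, a log2 fold change of 0.01 ± 0.19 (edgeR adjusted p 0.988). The glucose transporter gene Slc2a2 had a log2 fold change of -0.08 ± 0.10 (edgeR adjusted p 0.676).

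Among kinases and hormone receptors, Adra1b, an adrenergic receptor gene through which catecholamines trigger glycogen breakdown, had 156, 162 and 173 CPM in control F1 and 255, 203 and 233 CPM in FR F1. Every FR F1 library was above every control library. Its log2 fold change was 0.50 ± 0.13 (edgeR adjusted p 0.122). Gsk3a, a kinase gene whose product inhibits glycogen synthase, and Akt2, a gene of insulin signalling, had log2 fold changes of -0.31 ± 0.11 and -0.28 ± 0.12 (edgeR adjusted p 0.214 and 0.282). Gsk3a shares 820 exonic base pairs with a gene on the other strand.

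Genes were also ranked by how closely their log2(CPM + 1) followed Gys2 over the 6 libraries, among 8530 genes of at least 20 CPM on average. The closest were Slc12a4 (Pearson r 0.995), Tbc1d20 (0.993), Commd9 (0.993), Irf2bp1 (0.992), Eef2 (0.989) and Serpina3n (0.988). With 6 points that share their libraries and fall into separate groups, such values describe a pattern only, and all 6 genes had negative log2 fold changes. For deviations from the group means the closest were Lsm14b (0.994), Hdgf (0.993), Atp5e (0.989), Rps21 (0.988), Gpt (0.983) and Nfkbil1 (0.983), none of which is in the first list. Over the 6 libraries, Phkg2 came nearest to Gys2 of the glycogen members, with r of 0.697 at rank 1448, and Ppp1r3c stood at -0.823 at rank 8224. For deviations from the group means both turned out otherwise, with Ppp1r3c the nearest member at 0.595 (rank 839) and Phkg2 at 0.135 (rank 3473).

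Values of circadian clock genes from the same libraries are given beside these results. Of 17 listed clock genes, 3 were higher and 2 lower in FR F1 at an edgeR adjusted p under 0.05, and in 16 the groups did not overlap. The shares over all tested genes were 0.392% higher, 0.445% lower and 25.7% without overlap. Arntl, which encodes BMAL1, had 3.90, 8.11 and 4.99 CPM in control F1 and 56.8, 54.2 and 43.5 CPM in FR F1. Per3 had 167, 187 and 273 CPM in control F1 and 12.3, 20.3 and 36.9 CPM in FR F1. The FR F1 libraries were not alike in every clock gene. In FR F1 replicates 1 to 3, Per1 had 7.85, 3.68 and 74.3 CPM and Dbp 22.4, 53.1 and 163 CPM. Per2 had 43.4, 52.7 and 63.6 CPM in the same libraries. The time of day and the feeding state at collection are not given in the labels. The part of clock phase, feeding state or cell makeup in the Gys2 and Ppp1r3c values was not tested.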

How the data were processed

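Liver RNA of 6 libraries was measured, and groups were taken from the sample titles. The authors deposited 1 table of raw counts per gene and library. Per the submitters' processing notes, STAR, StringTie, HTSeq and DESeq2 were used with mm10; versions, annotation, strand setting and duplicate handling are not given in these sources. The labels' protocols name the library kit as a TruSeq kit for DNA. Symbols came from GENCODE M21 and matched 53620 of 53715 IDs.

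The tests used edgeR 4.0.16 (R 4.3.3) with filterByExpr (minimum count 10, minimum total 15), TMM factors and two-sided quasi-likelihood F tests. The Benjamini-Hochberg adjustment ran over all 13022 genes kept, with a threshold of 0.05, and the script was tested on simulated data. A standard error is the absolute log2 fold change divided by the square root of F. The common dispersion was 0.0500. No 2 libraries of a group agreed within counting noise (chi-square 4.32 to 14.8 per degree of freedom). Few protein-coding genes (13 of 21769) had over 1 count per base pair in any library; the 9 members reached 0.0218 to 0.344.

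The members and lists were chosen with earlier results of these data known. Named genes were the 9 members and up to 3 uncalled pathway genes of smallest p per role. The 6 genes most like Gys2 by each measure were also named. The 2 most abundant markers of a cell type were named where values are given. Arntl, Per1, Per2, Per3, Dbp, Nhlrc1 and Gm6614 were named outside this rule, after their values were seen. The other named neighbours of Gys2, genes that overlap members or pathway genes, related forms such as Pygb, and Mb also fall outside the rule. Results of some genes the rule names are not reported here. Alternatives were DESeq2 1.42.0, limma-voom (limma 3.58.1), a robust edgeR fit, 3 scalings, 2 filters, a replicate block, the omission of each library in turn, 2 treatments of dense counts and another transcript length.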

Additional observations from a re-analysis of the deposited data

How the results depend on the processing

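The main counts of changed genes were 109 in all, 51 higher and 58 lower. DESeq2 gave 423, 223 and 200, with 2 members called. Without a filter on low counts there were 1251, 763 and 488, with 2 members and 3 other pathway genes (Ppp1cb, Stbd1 and Slc37a4) called. With a minimum count of 50, 38 genes were lower. Leaving out 1 library at a time gave 7 to 651 changed genes in all, 2 to 434 higher and 5 to 217 lower, with 0 to 1 member called and Gys2 at a log2 fold change of -1.06 to -0.87. The count rose from 109 to 651 without control replicate 1 and to 159 without control replicate 3. It fell with each other library left out, to 7 without FR replicate 1. These fits have fewer samples, and the cause of these and the other shifts was not tested. G6pc changed sign under limma-voom (-0.023), without the filter (-0.0075), with the block (-0.027) and without single libraries (-0.24 to 0.13). Leaving out single libraries also turned Pygl (-0.028 to 0.10), Epm2a (-0.42 to 0.22), Ugp2 (-0.058 to 0.93) and Gys1 (-0.0098 to 0.48); none of these was called. In levels per kilobase, Gys2 ranked 1 with mean coding transcript length and 2 with the longest. With the replicate number as a block there were 21 changed genes, 9 higher and 12 lower, with 0 members called and Gys2 at -0.97 (edgeR adjusted p 0.0815). What libraries of the same number share beyond the label is not stated. Same-numbered deviations correlated at -0.02, 0.11 and 0.16, and not every library correlated best with its own number. With 3 libraries per group, these values cannot decide whether same-numbered libraries shared a batch. Depth limits Ppp1r3g, which had 3 to 52 counts.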

Other observations

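Within 500 kb of Gys2 on chromosome 6 there were 15 other protein-coding genes, of which 9 had enough counts to be tested. None was called by edgeR or limma-voom and 1 by DESeq2, the predicted gene Gm6614 (DESeq2 adjusted p 0.0161, higher in FR F1), with 5 at an unadjusted edgeR p under 0.05. In those 5 the FR F1 libraries lay above the control libraries. Over all tested genes 17.9% had an unadjusted p under 0.05, and in 12.5% the FR F1 libraries lay above. With 9 genes, nothing particular to the neighbourhood is read from these counts. Slco1a1, a hepatocyte organic anion transporter gene, had 538, 449.8 and 224 CPM in control F1 replicates 1 to 3 and 623, 679 and 616 CPM in FR F1 replicates 1 to 3. Its log2 fold change was 0.66 ± 0.27 (edgeR adjusted p 0.260). Ldhb, a lactate dehydrogenase subunit gene and the next tested gene beyond Gys2 in rising coordinates, had 3.04, 4.06 and 7.29 CPM in control F1 and 11.2, 8.11 and 13.95 CPM in FR F1, a log2 fold change of 1.18 ± 0.41 (edgeR adjusted p 0.201). Abcc9, which encodes a subunit of a potassium channel of mural cells, had a log2 fold change of 0.78 ± 0.27 (edgeR adjusted p 0.206). On the other side, Golt1b and Recql had -0.05 ± 0.27 and 0.01 ± 0.15 (edgeR adjusted p 0.931 and 0.978), with overlapping groups. Summed markers of stellate cells and fibroblasts and of endothelium were also higher in FR F1 libraries, and their part in these values was not tested.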
